A study of Mus musculus with 4 samples.

Results

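Gene desert regions are stretches of open chromatin that lie far from any protein-coding gene. They were chosen by position alone, from the accessible regions of B16F10 cells, a mouse melanoma line. Overlapping peaks of the 4 libraries were merged into 103629 regions on GRCm38 (mm10), and a region was kept when it lay outside every protein-coding gene body and more than 100 kb from the nearest protein-coding gene end. This left 7978 desert regions, 7.70% of all regions. A scrambled guide RNA was used in the control cells (sgScramble, n = 2), and the other cells carried a guide directed at the Arid1a gene (sgArid1a, n = 2). Open chromatin was mapped by Omni-ATAC, a form of ATAC-seq in which a transposase cuts exposed DNA and adds sequencing adapters to it, with 50000 cells per reaction. All 4 libraries share the same line and assay. The labels do not say whether the sgArid1a cells were 1 clone or a pool, or what share of the alleles was edited. Nor do they say that replicates were separate cultures, and a p-value then measures only the spread between these libraries, which may be technical. Mitf, Tyr, Dct, Pmel, Mlana and Sox10, genes that define the melanocyte lineage, each had at least 1 region within 1 kb of an end in all 4 lists. Dct had 2 such regions per sgScramble list but only 1 per sgArid1a list. For the other genes named, the number was the same in every list.

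Gene deserts hold few genes but many enhancers, short stretches of regulatory DNA that are bound by transcription factors and act on promoters over long distances by chromatin looping. Genes of development and growth control such as Myc and Sox9 are known for enhancers spread over the deserts beside them. The protein encoded by Arid1a is a large subunit of BAF, the mammalian SWI/SNF complex, which spends ATP to move nucleosomes and is known to act at enhancers more than at promoters.

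For each library the authors deposited a list of broad peaks, with a fold of signal over background and a −log10 q for each peak. The lists held 65353 to 85613 peaks, and both sgArid1a lists were shorter than both sgScramble lists. The lists carry no read counts, so depth is unknown, and a region missing from a list had no peak called there, which is not the same as closed chromatin. A region is called lost when both sgScramble lists hold a peak there and both sgArid1a lists do not, and gained in the reverse case. Over the whole genome, 12.9% of the regions in both sgScramble lists were lost and 1.39% of those in both sgArid1a lists were gained. Fold percentiles are ranks of the authors' fold within 1 list.

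DNA sequence was at hand for the desert regions that hold the start of a long non-coding RNA gene, since a window of 300 bases around each start is given by RefSeq (GRCm38.p6; 250 bases before the start and 50 after it). Of the 7978 desert regions, 148 overlapped such a window, and 84 held at least 1 window whole. The windows of 4 lost regions are shown first, the strongest by fold percentile among the 7 lost regions that held a whole window. These windows are examples from non-coding gene starts with a peak in the control cells only, and do not stand for lost desert regions in general. They are those of 4933400C23Rik (chr9:92718466-92718765, plus strand, between Plod2 and Dipk2a), Gm52028 (chr13:47563007-47563306, plus strand, between Rnf144b and Id4), 5031425F14Rik (chr2:166447201-166447500, plus strand, between Gm30733 and Prex1) and Gm38791 (chr6:37714405-37714704, plus strand, between Akr1d1 and Trim24). Capitals mark matches, on either strand, to any of 5 short motifs: TGANTCA (AP-1), CACGTG (the E-box bound by MITF), GGAATG (TEAD), ACAAAG (SOX) and GGAAGT (ETS).
4933400C23Rik: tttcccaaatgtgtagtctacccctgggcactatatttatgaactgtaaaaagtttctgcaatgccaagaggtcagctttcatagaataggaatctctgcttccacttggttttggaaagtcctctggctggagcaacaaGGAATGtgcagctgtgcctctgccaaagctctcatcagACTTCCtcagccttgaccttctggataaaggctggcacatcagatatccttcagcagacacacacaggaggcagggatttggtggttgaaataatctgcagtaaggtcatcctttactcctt
Gm52028: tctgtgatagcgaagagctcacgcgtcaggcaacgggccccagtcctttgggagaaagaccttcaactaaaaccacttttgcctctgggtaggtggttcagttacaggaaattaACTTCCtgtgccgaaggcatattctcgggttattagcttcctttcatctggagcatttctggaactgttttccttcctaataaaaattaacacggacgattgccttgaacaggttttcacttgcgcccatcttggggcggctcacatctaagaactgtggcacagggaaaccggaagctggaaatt
5031425F14Rik: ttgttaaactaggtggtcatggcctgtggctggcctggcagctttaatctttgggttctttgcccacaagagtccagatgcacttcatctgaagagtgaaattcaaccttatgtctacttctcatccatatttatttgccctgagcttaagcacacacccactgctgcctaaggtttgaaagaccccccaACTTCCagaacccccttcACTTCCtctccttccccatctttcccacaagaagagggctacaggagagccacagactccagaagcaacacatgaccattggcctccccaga
Gm38791: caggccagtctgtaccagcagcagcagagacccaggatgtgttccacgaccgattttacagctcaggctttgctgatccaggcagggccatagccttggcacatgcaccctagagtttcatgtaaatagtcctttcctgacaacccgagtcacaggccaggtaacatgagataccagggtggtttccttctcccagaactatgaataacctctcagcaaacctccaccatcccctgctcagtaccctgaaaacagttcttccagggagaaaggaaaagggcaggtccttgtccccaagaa

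The authors' fold at the 4933400C23Rik window's region was 3.93 and 3.46 in sgScramble replicates 1 and 2. At Gm52028 it was 3.26 and 3.92, at 5031425F14Rik 3.10 and 3.57, and at Gm38791 3.13 and 3.47. No peak was called at any of the 4 in either sgArid1a list. For comparison, the following 4 windows lie in the strongest desert regions that had a peak in all 4 lists and held a whole window, 1 per region. They are those of Gm11734 (chr11:117522930-117523229, plus strand, between Septin9 and Tnrc6c), Gm31676 (chr12:21543477-21543776, minus strand, between Ywhaq and Gm46305), Gm33958 (chr13:44400112-44400411, minus strand, between Cd83 and Jarid2) and Gm35251 (chr5:85705894-85706193, plus strand, between Gm42163 and Cenpc1). None of the 5 motifs matched in these 4, so they have no capitals. Other windows in desert regions of all 4 lists did match, with counts given below.
Gm11734: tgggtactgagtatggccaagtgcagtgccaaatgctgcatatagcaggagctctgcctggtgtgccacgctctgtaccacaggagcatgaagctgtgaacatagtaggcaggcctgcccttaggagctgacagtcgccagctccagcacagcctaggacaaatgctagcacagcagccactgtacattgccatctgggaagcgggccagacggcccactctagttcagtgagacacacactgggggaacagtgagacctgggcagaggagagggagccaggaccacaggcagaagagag
Gm31676: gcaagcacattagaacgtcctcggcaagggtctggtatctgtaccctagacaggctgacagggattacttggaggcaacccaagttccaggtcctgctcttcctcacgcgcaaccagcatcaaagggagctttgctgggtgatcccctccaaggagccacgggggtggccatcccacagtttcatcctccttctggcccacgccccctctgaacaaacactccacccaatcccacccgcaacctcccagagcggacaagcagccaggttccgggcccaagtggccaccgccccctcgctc
Gm33958: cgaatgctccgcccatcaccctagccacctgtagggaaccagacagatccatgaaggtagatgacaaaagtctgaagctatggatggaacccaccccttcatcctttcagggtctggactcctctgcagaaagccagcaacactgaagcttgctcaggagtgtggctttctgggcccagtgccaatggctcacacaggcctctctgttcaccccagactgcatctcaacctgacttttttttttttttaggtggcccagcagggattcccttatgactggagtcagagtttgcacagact
Gm35251: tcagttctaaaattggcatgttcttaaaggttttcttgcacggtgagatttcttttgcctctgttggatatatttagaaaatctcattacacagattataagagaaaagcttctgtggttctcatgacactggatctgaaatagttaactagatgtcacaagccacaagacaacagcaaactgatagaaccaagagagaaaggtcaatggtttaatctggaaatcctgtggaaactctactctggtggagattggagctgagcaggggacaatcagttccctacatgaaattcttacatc

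At Gm11734 the authors' fold was 7.64 and 8.01 in the sgScramble lists and 7.89 and 7.88 in the sgArid1a lists. At Gm31676 it was 6.37 and 6.31 against 8.11 and 7.52, at Gm33958 6.94 and 6.76 against 6.66 and 6.30, and at Gm35251 7.47 and 8.33 against 7.27 and 5.52. Over the 97 windows that lay whole in a desert region, AP-1 matched in 9 (9.28%), the E-box in 8 (8.25%), TEAD in 24 (24.7%), SOX in 25 (25.8%) and ETS in 22 (22.7%). Of all 32851 windows in the RefSeq table, the same motifs matched in 7.81%, 7.15%, 14.7%, 18.7% and 23.8%. Among the 69 whole windows in desert regions of all 4 lists, AP-1 matched in 6, the E-box in 6, TEAD in 16 (23.2%), SOX in 21 (30.4%) and ETS in 18 (26.1%). Among the 7 in lost desert regions, the counts were 1, 0, 2, 0 and 4. Some windows belong to 1 gene and overlap each other, and most of the table's windows lie at coding genes, so these shares are a description only.

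Desert peaks were fewer in the sgArid1a lists, and they also made up a smaller part of them. The sgScramble lists held 6033 and 6404 desert peaks and the sgArid1a lists 4317 and 4515. The means were 6218.5 ± 262 and 4416 ± 140 (SD, n = 2 each), a difference of -29.0%, while the whole lists differed by -18.7%. As a share of a list's own peaks, deserts took 7.33% and 7.48% in sgScramble and 6.61% and 6.34% in sgArid1a libraries, so the groups did not overlap. The difference was -0.93 percentage points, with a two-sided exact permutation p of 0.333, the smallest that 2 libraries against 2 can give. Desert peaks covered 4.47 and 4.73 Mb against 2.85 and 3.32 Mb, a difference of -32.9% with the same p. The whole lists covered less as well. As a share of a list's covered length, deserts took 6.05% and 6.25% in the sgScramble lists and 5.31% in each sgArid1a list. With each list shortened to the length of the shortest by its −log10 p, the difference was -455 peaks and -0.70 percentage points. The median width of desert peaks was 636 and 638 bp in the sgScramble lists and 550 and 627 bp in the sgArid1a lists. For peaks elsewhere it was 765 and 754 bp against 686 and 742 bp. The group means of these medians differed by -7.61% in deserts and -5.99% elsewhere.

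**Figure D1:**
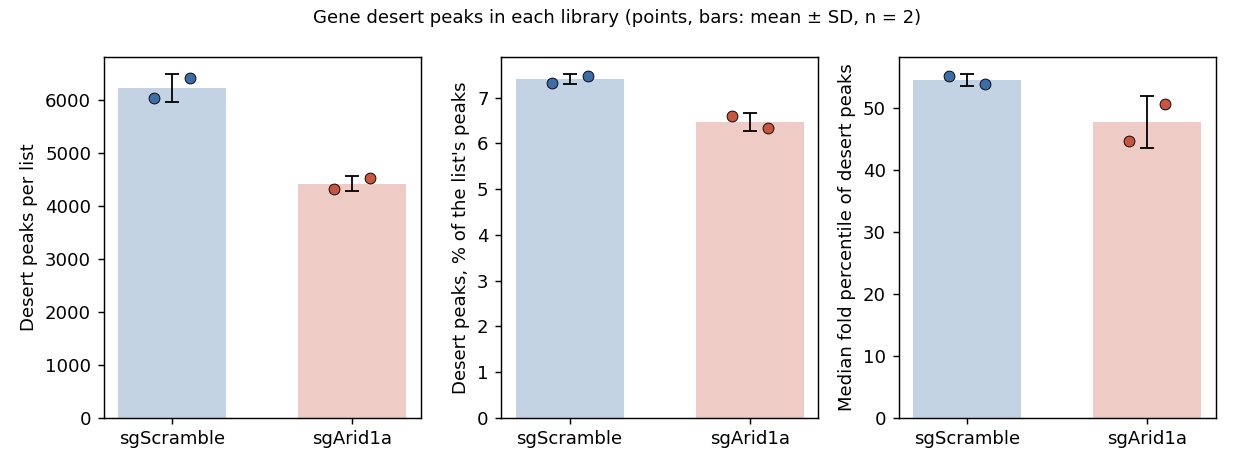
Desert peaks in each library: their number (left), their share of the list's peaks in percent (middle) and their median fold percentile within the list (right). Points are libraries and bars are means ± SD (n = 2 each); in all 3 panels both sgArid1a libraries lie below both sgScramble libraries.

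In control cells, desert peaks were narrow but stood slightly above the middle of their lists by fold. Their median fold percentile was 55.1 and 53.8 in the sgScramble lists, where the middle of a list is 50 by construction, and 44.7 and 50.6 in the sgArid1a lists. Among sgScramble desert peaks 11.1% and 11.2% stood above the 90th percentile of fold, and among sgArid1a desert peaks 5.86% and 7.88% did. By the authors' −log10 q, which also depends on the number of reads in a peak, desert peaks stood lower than others: the median was 5.83 and 5.56 in the sgScramble lists against 7.47 and 7.31 for peaks elsewhere, and 3.37 and 4.12 in the sgArid1a lists against 5.24 and 5.82.

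Most desert regions lacked a peak in at least 1 list. All 4 lists held a peak at 3159 of the 7978 (39.6%), against 51.0% of all regions. A peak in a single list was found at 2199 (27.6%), and outside the deserts at 21.9% of regions. The single-list regions were 606 and 860 from sgScramble replicates 1 and 2 and 411 and 322 from sgArid1a replicates 1 and 2. These were 7.60%, 10.8%, 5.15% and 4.04% of desert regions, against 5.61%, 7.67%, 3.79% and 4.78% of other regions. Next to the 3159 regions of all lists, the most frequent combination was both sgScramble lists and no sgArid1a list, at 1055 regions (13.2%). A peak in sgScramble replicate 2 alone came next. The order of these 3 combinations was the same outside the deserts, where both sgScramble lists and no sgArid1a list made up 8.71%.

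About 1 in 5 desert regions of the control cells had no peak in either sgArid1a list. Of the 5197 desert regions in both sgScramble lists, 1055 were lost, or 20.3% (95% Clopper-Pearson interval 19.2% to 21.4%, counting error only). Beside the 12.9% over all regions, the share was 13.5% (13.1% to 14.0%) for intergenic regions nearer to genes, 15.3% (14.9% to 15.7%) for regions inside gene bodies and 3.08% for regions within 1 kb of a gene end. A further 983 desert regions (18.9%) were missing from 1 of the sgArid1a lists, and 3159 (60.8%) were in both. By library, sgArid1a replicate 1 lacked 1689 of the 5197 (32.5%) and replicate 2 lacked 1404 (27.0%), beside 23.1% and 17.4% over all regions. Regions are not replicates, so these shares are given without a test. With lists of equal length, 531 desert regions were lost (13.2%, against 6.51% elsewhere). The share was 36.3% (20.5% elsewhere) when only peaks with a −log10 q of at least 5 were used, and 7.71% (2.65% elsewhere) when presence was judged on the upper 50% of each list by fold and absence on the full lists. Judged with 1 list in place of a group, the lost regions were 1915 when sgScramble replicate 1 was left out, 1661 when sgScramble replicate 2 was, and 1689 when sgArid1a replicate 2 was.

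The reverse was rare. Of the 3328 desert regions in both sgArid1a lists, 53 were gained, or 1.59% (1.2% to 2.08%), close to the 1.39% over all regions. Desert regions of both sgArid1a lists were missing from sgScramble replicate 1 in 3.55% and from replicate 2 in 3.13% of cases, beside 3.18% and 2.84% over all regions. The gained count was 135 with lists of equal length. Leaving out sgScramble replicate 1 or 2 gave 104 or 118 gained regions, and leaving out sgArid1a replicate 1 or 2 gave 375 or 464.

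Replicate lists also differed more in deserts than elsewhere, which sets the scale for the differences between groups. Of the desert regions of sgScramble replicate 1, 13.5% were missing from sgScramble replicate 2, but 39.5% and 34.7% from sgArid1a replicates 1 and 2. Outside the deserts the same 3 shares were 10.6%, 28.6% and 22.9%. Of the desert regions of sgScramble replicate 2, 18.6% were missing from replicate 1, and 42.0% and 37.5% from the sgArid1a lists. Outside the deserts these were 13.8%, 30.7% and 24.9%. In the other direction, the desert regions of sgArid1a replicate 1 were missing from the sgScramble lists in 15.3% and 13.7% of cases, fewer than the 22.4% missing from sgArid1a replicate 2. Outside the deserts they were 10.3%, 9.63% and 13.7%. For sgArid1a replicate 2 the shares were 12.7% and 11.3%, and 26.0% were missing from sgArid1a replicate 1. Here the shares outside the deserts were 11.8%, 10.9% and 21.5%, so the first 2 were nearly equal to those in deserts. These shares depend on the length of the list that is searched, and both sgScramble lists were longer.

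**Figure D2:**
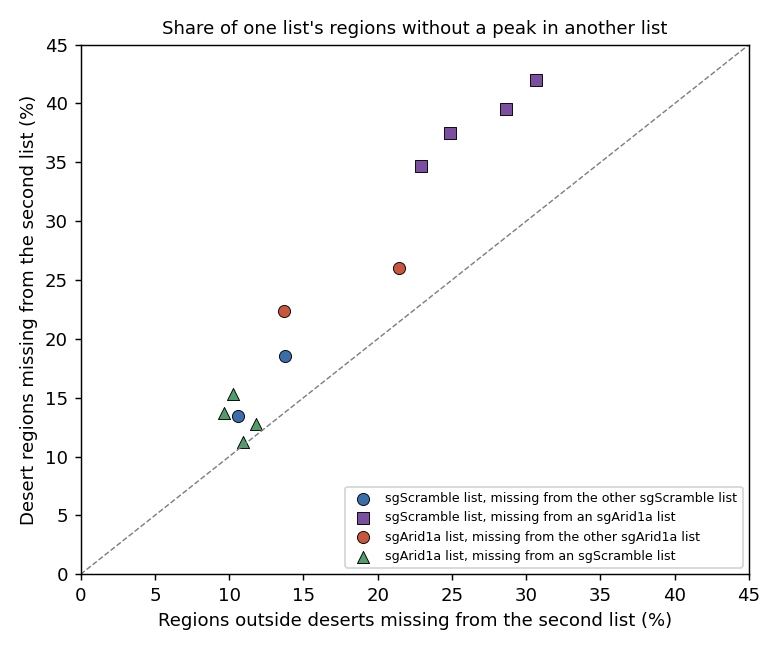
Share of the regions of a first list that have no peak in a second list, in percent, for desert regions (vertical axis) and all other regions (horizontal axis). Each point is 1 of the 12 ordered pairs of lists and the dashed line marks equal shares; the 4 pairs from an sgScramble to an sgArid1a list lie highest, between 34.7% and 42.0% for deserts.

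Weak and narrow desert regions were lost most often, and at equal fold rank desert regions were lost more often than others. All regions in both sgScramble lists were divided into 4 bins of equal size by mean fold percentile. In the lowest bin 410 of 897 desert regions were lost (45.7%, 42.4% to 49.0%), against 31.5% of other intergenic and 32.4% of gene body regions. In the next bin 412 of 1376 were lost (29.9%), against 15.5% in both of those classes. In the bin above it, 13.3% of desert regions were lost, against 4.91% of other intergenic and 6.03% of gene body regions. In the highest bin 44 of 1498 desert regions were lost (2.94%), beside 1.11% and 1.35%.

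Within bins of width the classes lay closer together. In the narrowest of 4 equal bins, up to 550.5 bp in the sgScramble lists, 705 of 1673 desert regions were lost (42.1%), against 31.0% of other intergenic and 32.9% of gene body regions. In the bin of 826 to 1220 bp the desert share was 6.22%, and that of gene body regions was 6.34%. The desert excess over all other regions was 8.02 percentage points as counted, 10.1 within bins of fold percentile and 5.29 within bins of width. Within bins of −log10 q, chosen after the data were seen, it was 5.59 points. There, 691 of 1509 desert regions in the lowest bin were lost (45.8%, against 36.2% elsewhere) and 1 of 659 in the highest.

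**Figure D3:**
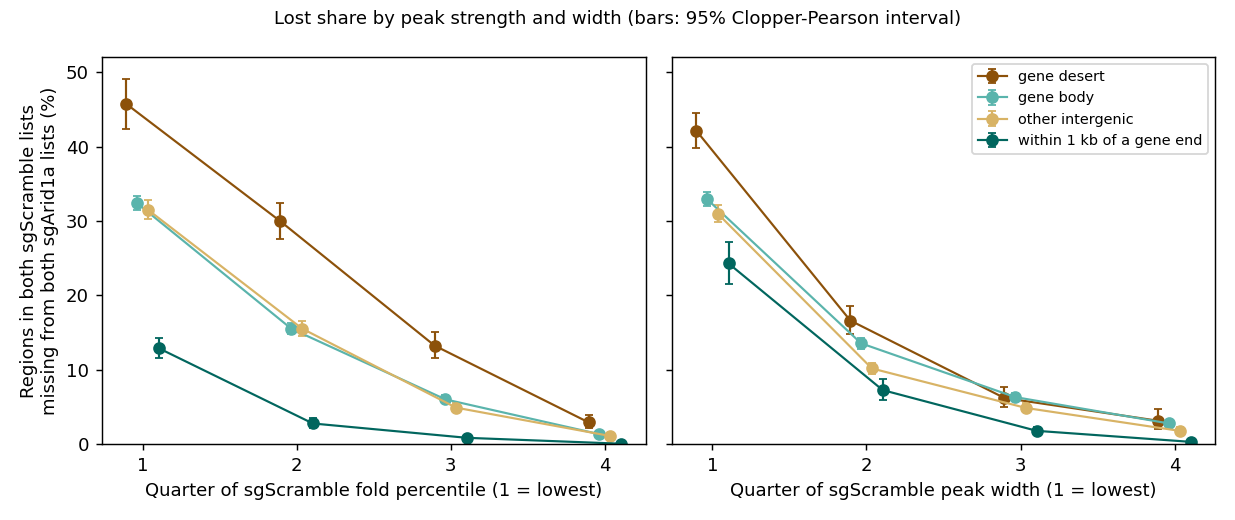
Share of regions in both sgScramble lists that were missing from both sgArid1a lists, in percent, in 4 equal bins of the mean sgScramble fold percentile (left) and of the sgScramble width (right). Lines are gene desert, gene body, other intergenic and gene end regions, and bars are 95% Clopper-Pearson intervals; desert regions fall from 45.7% in the lowest to 2.94% in the highest bin of fold percentile.

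Desert regions ranked higher by fold than other regions in general, and the lost ones did so too. Over all regions in both sgScramble lists the median fold percentile was 60.8 in deserts and 55.2 elsewhere. By class it was 50.7 in gene bodies, 54.4 in other intergenic regions and 70.0 at gene ends. For lost desert regions the median fold percentile in the sgScramble lists was 38.5 (quartiles 25.6 and 53.1), while lost regions outside the deserts had a median of 26.6. Of the 1055, 319 (30.2%) stood above the 50th percentile, 34 above the 80th and 7 above the 90th. The desert regions in all 4 lists had a median of 73.2 in the sgScramble lists, against 64.9 outside the deserts, and of 59.7 in the sgArid1a lists. Other intergenic regions in all lists also ranked lower there, with 64.1 and 65.2 in sgScramble and 55.8 and 59.2 in sgArid1a libraries. Gene body regions had 60.5 and 62.1 against 51.9 and 55.7. Gene end regions ranked higher, with 72.3 and 74.0 against 78.7 and 78.1. In the sgScramble lists the median covered length was 457 bp at lost desert regions, 472 bp at lost regions elsewhere and 876 bp at desert regions in all lists. Desert regions in all lists were also narrower in the sgArid1a libraries. In sgArid1a replicates 1 and 2 they covered 79.2% and 89.0% of their mean sgScramble length, beside 81.7% and 91.1% for other intergenic regions and 90.2% and 95.5% for gene end regions.

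Lost desert regions lay farther from the nearest sgArid1a peak than lost regions elsewhere. Peaks are sparser in deserts, so this distance describes deserts and not loss. Desert regions that were not lost were not measured in this way. The nearest sgArid1a peak lay a median of 21.9 kb away (quartiles 8.29 and 58.7 kb), against 5.79 kb for lost regions outside the deserts, where peaks are denser. For 303 of the 1055 (28.7%) no sgArid1a peak lay within 50 kb, against 4.70% of lost regions elsewhere. For 9 of the 1055 (0.85%) a peak lay within 1 kb, against 2.48% elsewhere.

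The 5 strongest lost desert regions lay beside Eya4, Pcdh7, Pcdh18, Maf and Rgs18. The first, on chromosome 10 at 23526010 to 23527321, between Eya4, a transcriptional coactivator of development, and the ribosomal protein gene Rps12, had a fold of 7.30 and 7.94 in the sgScramble lists. It was covered over 1282 bp in replicate 1 but 491 bp in replicate 2. The region between Pcdh7 and G6pd2 (chromosome 5, 58466406 to 58466878) had a fold of 6.95 and 7.86. Their mean fold percentiles were 99.1 and 98.5. The region beyond Pcdh18, a protocadherin of cell adhesion (chromosome 3, 49893738 to 49894301), had a fold of 6.45 and 6.73. The region 119464 bp from Maf, a bZIP transcription factor (chromosome 8, 115583250 to 115583789), had 6.95 and 5.90, and the region between Rgs18 and Brinp3 (chromosome 1, 145054514 to 145054894) had 5.95 and 6.65. In the sgArid1a lists no peak touched any of the 5.

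The 5 strongest desert regions present in all lists had nearly the same fold in all 4 libraries. They were picked for the highest mean fold percentile over all 4 lists. A region weak in either group could not enter, so the likeness is partly built in. The strongest, between Fbxo15 and Neto1 on chromosome 18 (85697931 to 85698282), had a fold of 19.9 and 18.7 in the sgScramble and 18.1 and 17.7 in the sgArid1a lists, and was 348 bp wide in each. The next, between Rap2b and Arhgef26 on chromosome 3 (62159052 to 62159490), had 17.6 and 16.5 against 16.2 and 15.9. The third, between Pex2 and 1700008P02Rik (chromosome 3, 5860346 to 5860826), had 14.5 and 14.6 against 14.7 and 13.8, with the highest −log10 q of the 5, between 272 and 336. The others lay between LOC108168698 and Samd9l on chromosome 6 (3200907 to 3201656) and before Olfr161, the first gene of chromosome 16 (3350691 to 3351676). No list of regions prone to mapping artefacts was used here, and whether such signal contributes to these 5 was not tested.

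The 5 strongest gained desert regions had mean fold percentiles of 50.3 to 74.5 in the sgArid1a lists. The first lay between Akr1d1 and Trim24, a transcriptional co-regulator gene, on chromosome 6 (37744811 to 37745102), with a fold of 4.80 and 4.97 in sgArid1a replicates 1 and 2. The same interval holds the lost region at the start of Gm38791 whose sequence is shown above. The second lay between Ccdc54 and Cblb, a ubiquitin ligase gene (chromosome 16, 50841080 to 50842127), with a fold of 5.30 and 3.90. The other 3, between Psmd7 and Zfhx3, Tmem132e and Cct6b, and Fam98a and Crim1, had mean percentiles of 54.5, 52.1 and 50.3. The median percentile of the 53 gained desert regions was 23.3, and 5 stood above the 50th. They fell in 53 different intervals.

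The lost share was higher in the depth of the deserts. Desert regions lay a median of 205720 bp from the nearest gene end (quartiles 138428 and 346050 bp). Of regions 100 to 150 kb away, 277 of 1663 were lost (16.7%, 14.9% to 18.5%), and of those at 300 to 500 kb, 191 of 859 (22.2%, 19.5% to 25.2%). Beyond 500 kb the share was 175 of 686 (25.5%, 22.3% to 28.9%). It was 46 of 157 (29.3%, 22.3% to 37.1%) beyond 1000 kb. Median width fell along the same bins, from 752 bp at 100 to 150 kb to 626 bp beyond 1000 kb, while the median fold percentile was 60.2 and 60.5. The part that width has in the trend was not tested. Just inside the limit of 100 kb, at 100 to 110 kb, 54 of 419 regions were lost (12.9%), and just outside it, at 90 to 100 kb, 89 of 499 were (17.8%), so the limit itself marks no step upwards.

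**Figure D4:**
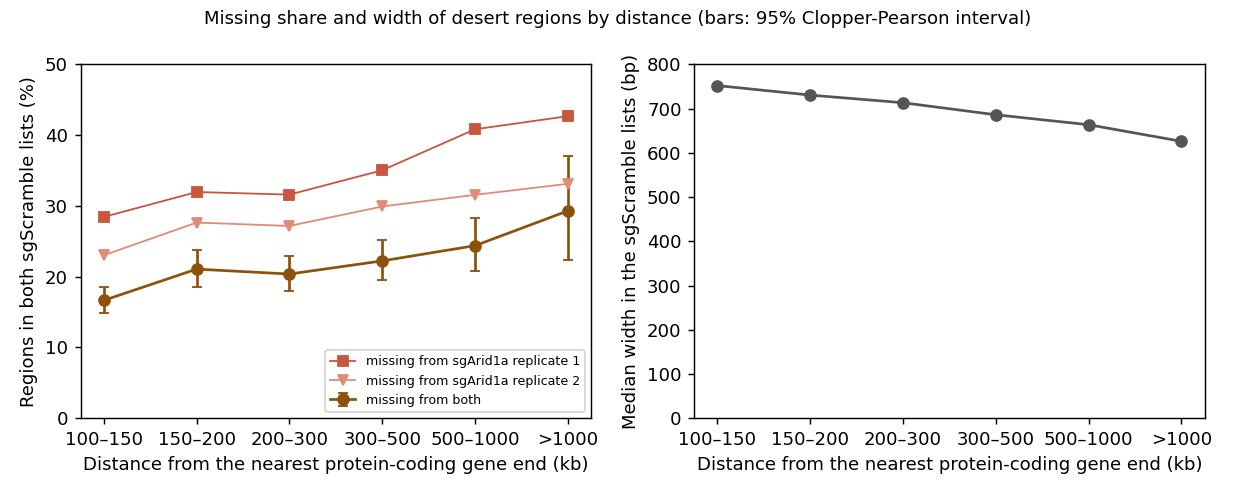
Left, percent of the desert regions in both sgScramble lists that were missing from both sgArid1a lists (95% Clopper-Pearson intervals) or from each of them, by distance from the nearest protein-coding gene end in kb. Right, median width in bp of the same regions in the sgScramble lists; the share missing from both is 16.7% nearest to genes and 29.3% beyond 1000 kb, and the median width is 752 and 626 bp.

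The 3 regions farthest from any gene all lay between Celf4 and Pik3c3 on chromosome 18. The farthest, at 27994027 to 27994680, was 2239507 bp from Celf4, an RNA-binding protein gene. It had a fold of 4.52 and 3.78 in the sgScramble lists and 2.89 in sgArid1a replicate 2, with no peak in sgArid1a replicate 1. The second had a peak in sgScramble replicate 2 alone and the third in sgArid1a replicate 1 alone.

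The space between neighbouring protein-coding genes is called an interval here and named by the genes on both sides, and 1136 intervals held a desert region when chromosome ends, with a gene on 1 side only, are counted too. Between the first and the last gene of the chromosomes, 1689 intervals were wide enough to hold a desert (over 200 kb), and 1128 of them (66.8%) held a region. Desert territory made up 785 Mb, or 29.2% of that span, with 10.1 regions per Mb, against 50.2 per Mb in the rest. Per library the density was 7.60 and 8.08 per Mb in sgScramble and 5.42 and 5.69 per Mb in sgArid1a. A lost region was found in 524 of the 1007 intervals with a region in both sgScramble lists. In 45 of the 1007 (4.47%), no desert region was left in either sgArid1a list. These were sparse intervals with at most 3 such regions, among them Mmp16 / Cnbd1 with 3, and Gata6 / Rbbp8, beside the GATA factor gene Gata6, and Tnc / Pappa, beside the tenascin C gene, with 2 each. Mmp16 encodes a membrane-bound matrix metalloproteinase. These 3 were chosen after their values were seen.

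The interval with the most desert regions lay beyond Myc, the proto-oncogene that drives growth and proliferation. Between Myc and Gsdmc (chromosome 15, 61990362 to 63775970) there were 58 and 59 desert regions in the sgScramble lists and 39 and 45 in the sgArid1a lists. Of the 47 in both sgScramble lists 6 were lost (12.8%, 4.83% to 25.7%), 9 were missing from 1 sgArid1a list and 32 were in both. The desert on the other side of Myc, towards A1bg, had 30 and 34 regions against 24 and 25, with 3 of 27 lost. The lost regions there were at 61109084 to 61110002, 61415632 to 61416429 and 61649870 to 61650226. Of the 6 beyond Myc, 4 were under the 16th fold percentile, and the strongest lay at 63347534 to 63348120, with a fold of 4.02 and 5.11. The strongest region of that desert in all lists, 401865 bp from Myc (62392226 to 62393509), had a fold of 6.07 and 6.74 in sgScramble and 5.12 and 6.16 in sgArid1a. The region at an end of Myc itself was in all 4 lists.

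The next 2 intervals had more losses. Between Zeb2, a zinc finger factor of the melanocyte lineage, and Acvr2a, an activin receptor gene (chromosome 2, 45117443 to 48814108), there were 52 and 49 regions in the sgScramble and 32 in each of the sgArid1a lists. Of 41 in both sgScramble lists 11 were lost (26.8%, 14.2% to 42.9%). The strongest lost one (48651861 to 48652521) lay 161588 bp from Acvr2a, with a fold of 5.23 and 4.58. The strongest in all lists, at 47073973 to 47074881, lay 1739228 bp from Acvr2a, with 7.28 and 6.60 in sgScramble and 6.63 and 6.99 in sgArid1a. Of the 2 regions in both sgScramble lists at the ends of Zeb2, 1 was also lost. Between Nmbr and Cited2, a transcriptional co-regulator gene (chromosome 10, 14771459 to 17723227), there were 44 and 45 regions against 22 and 26, and 11 of 38 were lost (28.9%, 15.4% to 45.9%). All 11 stood below the 50th fold percentile. The strongest in all lists there (17230081 to 17230913) had 7.12 and 7.05 against 7.43 and 7.32.

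The other intervals with the most desert regions had lost shares between 10.7% and 25.9%. Usp25 / Cxadr on chromosome 16 had 7 of 30 lost and Adamts5 / N6amt1 on the same chromosome 5 of 28. On chromosome 1, Camk1g / Plxna2, beside the gene of the semaphorin receptor plexin A2, had 7 of 27. Epha7 / Map3k7, between an ephrin receptor and a kinase of TGF-beta and NF-kappaB signalling, had 6 of 26. Zfp608 / Gramd3 on chromosome 18 had 5 of 29. Rasgrp1 / Thbs1, beside the thrombospondin 1 gene, had 3 of 28, with 8 more missing from 1 sgArid1a list. A pair of further intervals were among the 5 with the most losses: Marcks / Rfpl4b with 8 of 25 and Tmem167 / Atp6ap1l with 8 of 19.

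Over the 165 intervals with at least 10 regions in both sgScramble lists, the median lost share was 19.05% (quartiles 10% and 27.3%), and 150 had at least 1 lost region. The highest share, 6 of 10 (60%, 26.2% to 87.8%), was between Rnf144b and Id4, a helix-loop-helix inhibitor of differentiation (chromosome 13, 47247992 to 48261115). This interval had 11 regions in each sgScramble list and 4 and 3 in the sgArid1a lists. The lost ones began at 47352756, 47386070, 47562867, 47811411, 47856020 and 48020601, spread over most of the interval, and the third holds the start of Gm52028 whose sequence is shown above. The strongest of them, 47811411 to 47812311, had a fold of 4.70 and 5.18. Of the 3 that stayed in all lists, 47862561 to 47863756 had a fold of 5.97 and 5.82 in sgScramble and 5.53 and 6.52 in sgArid1a.

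Second was Prok2 / Rybp (chromosome 6, 99726393 to 100228564), beside the gene of the Polycomb protein RYBP, with 7 of 12 lost (58.3%, 27.7% to 84.8%). It had 17 regions in each sgScramble list and 4 and 7 in the sgArid1a lists. The lost ones stood between the 11.6th and 58.9th fold percentile, and the 4 in all lists between the 64.4th and 90.4th, so here the 2 sets did not overlap in strength. After it came Itga1 / Isl1 (chromosome 13, 115101965 to 116298269), between an integrin gene and a LIM homeobox gene, with 9 of 16 lost (56.3%, 29.9% to 80.2%) and 16 and 19 regions against 8 and 9. Its lost regions included a strong one, 115813440 to 115813764, 484506 bp from Isl1, with a fold of 6.04 and 5.73. Its region with the highest fold percentile, 115369462 to 115370077, stayed in all lists at 7.75 and 7.38 against 5.46 and 5.59.

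No region was lost in 15 of the 165 intervals, and the first 3 by chromosome and position are described here. Klf4 / Actl7b, beside the zinc finger factor gene Klf4, kept 11 of 11 in at least 1 sgArid1a list (upper Clopper-Pearson bound 28.5%), though 3 were missing from the other. Mdfic / Tfec, beside a gene of the MITF family, had 0 of 12 lost and nearly even totals, with 13 and 14 regions in sgScramble and 13 in each sgArid1a list. The even totals hide differences: 5 of the 12 were missing from 1 sgArid1a list and 7 were in all lists. Arrdc4 / Nr2f2, beside the orphan nuclear receptor gene Nr2f2, had 0 of 11 lost, 3 missing from 1 sgArid1a list, and 12 and 13 regions against 11 and 9. The highest and lowest shares were picked from 165 intervals, and the counting intervals of the 3 lowest include the 20.3% of all desert regions. No interval had more than 1 gained region. The first by position were Eya1 / Msc, Defb41 / Tfap2d and Ogfrl1 / B3gat2, all on chromosome 1.

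**Figure D5:**
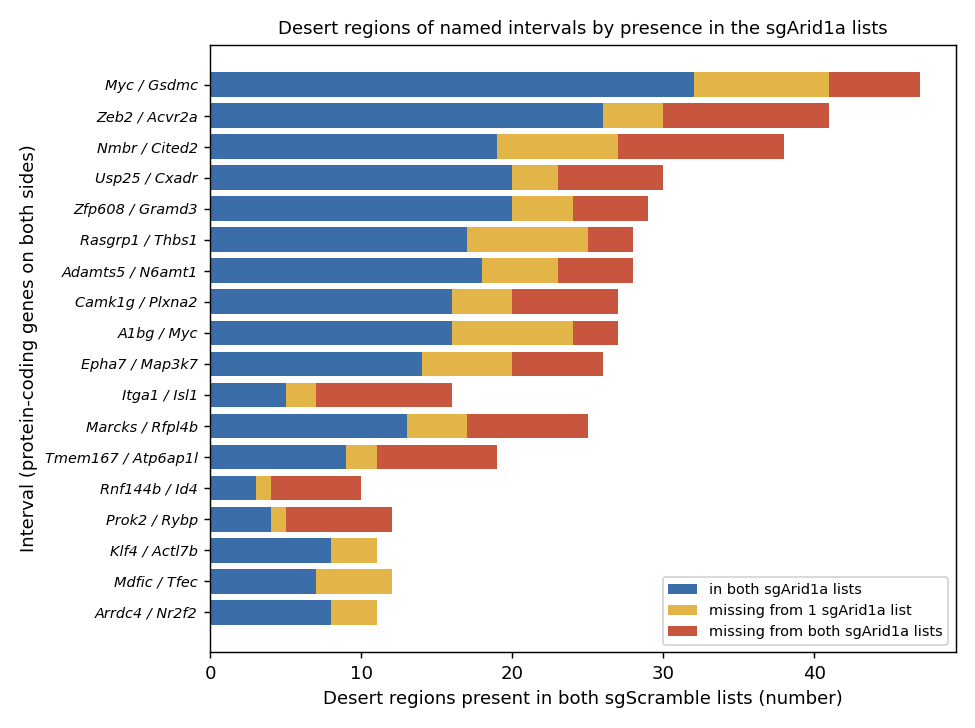
Number of desert regions present in both sgScramble lists (horizontal axis) in 18 intervals, named by the protein-coding genes on both sides, split by presence in both (blue), 1 (yellow) or none (red) of the sgArid1a lists. From the top are the 10 intervals with the most regions, the others with the most losses, the highest lost shares and the lowest; Myc / Gsdmc lost 6 of 47 and Rnf144b / Id4 lost 6 of 10.

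At the ends of the flanking genes the lost share was close to that of gene ends in general. Of the 1989 genes beside an interval with a desert region, 1171 (58.9%) had a region in both sgScramble lists within 1 kb of an end, and 1126 had one in all 4 lists. Of the 1318 such gene-end regions 35 were lost (2.66%), beside 3.08% of all gene-end regions. At the genes beside an interval with a lost desert region, 14 of 662 gene-end regions were lost (2.11%), and beside intervals with none lost, 17 of 588 (2.89%). Id4, Cited2, Itga1, Rybp, Marcks, Eya4 and Pcdh7 each had an end region in all lists, while that of Isl1 was missing from sgArid1a replicate 2.

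By the nearest gene, 1660 protein-coding genes had a desert region, and groups of genes were read against the 20.3% lost over all of them. Among 25 transcription factors of melanocytes and the neural crest, 13 were nearest to a desert region and 15 of their 77 regions were lost (19.5%, 11.3% to 30.1%). Zeb2 had 7 of 23 lost, Sox6 2 of 9, and Sox9, a SOX factor of the neural crest, 0 of 10. Among 89 developmental regulators known for distant enhancers, 58 were nearest to a desert region and 59 of 305 were lost (19.3%, 15.1% to 24.2%), with 6 of 36 at Myc, 1 of 24 at Sox11 and 5 of 18 at Klf6. Both lists hold Sox9.

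In 4 larger lists, of cell contact, guidance, synapses and growth signals, the lost share was above the 20.3%, but the counting interval of each list includes it. The same held for the small lists of AP-1, TEAD and Hippo genes (3 of 9, 33.3%, 7.49% to 70.1%) and BAF and PBAF genes (2 of 7, 28.6%, 3.67% to 71.0%). Cadherins and protocadherins had 25 of 94 lost (26.6%, 18% to 36.7%), with 6 of 11 at Pcdh7, 2 of 10 at Cdh11 and 1 of 10 at Pcdh18. Axon guidance ligands and receptors had 29 of 102 lost (28.4%, 19.9% to 38.2%), with 7 of 20 at Epha7, 4 of 11 at Plxna2 and 2 of 12 at Slit2, a secreted guidance cue. Synaptic adhesion and neuronal genes had 36 of 133 (27.1%, 19.7% to 35.5%), with 6 of 19 at Adgrl2, 5 of 13 at Ncam2 and 3 of 12 at Tenm4. Growth factors, receptors and adhesion genes of melanoma cells had 17 of 58 (29.3%, 18.1% to 42.7%), among them 3 of 7 at Erbb4, 2 of 8 at Fgfr2 and 1 of 5 at Ednrb, the endothelin receptor of melanoblasts.

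Several lists barely touched the deserts. Of 25 type I interferon and DNA sensing genes, 1 was nearest to a desert region, Irf8, an interferon regulatory factor, with 0 of 2 lost. Of the 21 AP-1, TEAD and Hippo genes, 2 were, Jun with 3 of 7 lost and Ccn2 with 0 of 2. Of the 28 BAF and PBAF subunit genes, 3 were, and Ss18 had 2 of 2 lost and Arid1b, the paralog of Arid1a, 0 of 5. Olfactory and vomeronasal receptor genes had 1 of 24 lost (4.17%, 0.105% to 21.1%), over 5 genes, with 0 of 9 at Olfr1324 and 1 of 9 at Olfr161.

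Non-coding genes were common in the deserts. A long non-coding RNA gene overlapped 1506 desert regions (18.9%), and 416 (5.21%) lay within 1 kb of an end of one. Near those ends 42 of 321 regions in both sgScramble lists were lost (13.1%, 9.60% to 17.3%), inside the genes and away from their ends 138 of 769 (17.9%, 15.3% to 20.8%), and elsewhere 875 of 4107 (21.3%, 20.1% to 22.6%). The median width fell in the same order, from 853 to 744 and 699 bp. Variable (V) gene segments of immunoglobulins and T cell receptors, which the rule does not count as protein-coding genes, overlapped 28 desert regions. Of the 21 in both sgScramble lists, 0 were lost (upper Clopper-Pearson bound 16.1%). A microRNA hairpin lay in 2 desert regions: Mir802, in the Runx1 / Setd4 interval (chromosome 16, 93368673 to 93370066), and Mir6388, in Adam6a / Zfp386. Both regions had a peak in all 4 lists.

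Desert regions were often grouped. The nearest other desert region lay a median of 12.8 kb away, with 23.6% within 5 kb and a further 38.0% at 5 to 20 kb. Of the 896 with none within 100 kb, 466 were in both sgScramble lists and 113 of these were lost (24.2%, 20.4% to 28.4%). With a neighbour at 5 to 20 kb the share was 397 of 2120 (18.7%, 17.1% to 20.5%). Losses were slightly more frequent beside other losses. A neighbour is here the nearest desert region of the same interval that was also in both sgScramble lists. Where it was lost, 242 of 1023 were lost (23.7%, 21.1% to 26.4%), and where it was not, 752 of 3899 (19.3%, 18.1% to 20.6%). With the neighbour within 10 kb the shares were 21.3% (17.1% to 25.9%) and 17.5% (15.6% to 19.5%). Over 10 kb away they were 24.9% and 20.4%. A pair of regions can be each other's neighbour, which these intervals do not allow for.

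Losses were found in the deserts of every chromosome with a desert region in both sgScramble lists. The share ran from 15.3% on chromosome 12 (57 of 372; 11.8% to 19.4%) to 25.6% on chromosome 16 (71 of 277; 20.6% to 31.2%). Of the 20 chromosomes, only 12 and 16 had a counting interval that leaves out 20.3%. On chromosome 18 the share was 25% (52 of 208), on the X chromosome 24.2% (23 of 95), and on chromosome 4, which carries Arid1a, 23.3% (54 of 232). On chromosome 12, the Adam6a / Zfp386 interval had 1 of 23 lost, a value looked up after that share was seen.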

How the data were processed

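ATAC-seq of B16F10 cells was used in the form of the 4 broad peak lists that the authors deposited, 1 per library, 2 libraries per group. Each list gives, as deposited by the authors, a position, a fold of signal over background (a ratio), a −log10 p and −log10 q, and an integer score that is the −log10 q times 10, cut to a whole number, in at least 99.99% of the peaks. The lowest −log10 q was 1.00 to 1.01 in the 4 lists. STAR 2.5.3a, HOMER and the builds GRCm38 and mm10 are named without a role per the submitters' processing notes. For the peak caller, the sources used here give no name. The lists hold no counts, so depth is unknown and no interval rests on reads.

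Peaks overlapping by at least 1 bp were merged over the 4 lists, on chromosomes 1 to 19, X and Y, and a region was present in a list when a peak of that list lay in it. Regions were placed against the 21887 protein-coding genes of the RefSeq table (GRCm38.p6). Library values were compared by an exact two-sided permutation test. Shares of regions carry 95% Clopper-Pearson intervals, which cover counting error over regions only. Merging and counting were tested on simulated lists. Python 3.11.15, pandas 2.3.3, numpy 2.4.6, SciPy 1.17.1 and matplotlib 3.10.9 were used.

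Named regions were the 5 lost, 5 gained and 5 in all lists with the highest mean fold percentile, and the 3 farthest from a gene. Named intervals were the 10 with the most regions in both sgScramble lists, the 5 with the most losses, the 3 with the most gains, and the 3 highest and 3 lowest lost shares with at least 10 such regions. Up to 3 genes per list were named for the most regions. The members, the 10 gene lists and these rules were chosen with earlier results of these data known. Other distances, annotations, thresholds, overlaps, list lengths, a replicate block and each library left out were tried. RefSeq windows on chromosome 18 were not printed. No genome sequence was used, and no list of regions prone to artefacts.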

Additional observations from a re-analysis of the deposited data

How the results depend on the processing

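The number, share and length of desert peaks were lower in sgArid1a in all 15 alternatives, with differences of -2777 to -304 peaks, -1.94 to -0.21 percentage points and -2.40 to -0.223 Mb. Not all of these could have come out otherwise. The presence setting and the replicate block leave these measures unchanged. Leaving out 1 library cannot reverse them, since both sgArid1a lists lay below both sgScramble lists. With a replicate block, pairing equal numbers that share only a number, the differences were -1802.5 peaks, -0.93 points and -1.51 Mb, with an exact sign-flip p of 0.5, the smallest that 2 pairs can give, and the mean share of desert regions missing from the sgArid1a list of the same number was 38.5%. The 1055 lost desert regions became 1651 at over 50 kb from genes, 573 at over 200 kb, 175 at over 500 kb, 200 when all annotated genes bound a desert, 531 with lists of equal length and 222 with presence judged on the upper 50% of each list by fold. With equal lengths the lost share was 13.2% in deserts and 6.51% elsewhere, and it was higher in deserts in all 15 settings that give both. The 53 gained regions became 92, 28, 6 and 5 under those distances and annotations, 3 with −log10 q of at least 5, 24 in the upper 50%, 135 with equal lengths, 35 with peaks of at least 500 bp and 3 with presence by the upper 50%. The mean share missing from an sgArid1a list, 29.8%, became 36.6% at over 500 kb, 34.2% with all genes, 46.0% with −log10 q of at least 5, 36.3% in the upper 50%, 21.1% with equal lengths, 13.7% with presence by the upper 50% and 38.1% with an overlap of 50% without merging. The desert excess in lost share, 8.02 points, became 10.1 within fold bins, 5.29 within width bins and, chosen after the data were seen, 5.59 within −log10 q bins and 4.77 within −log10 q and width bins. Leaving out 1 library in turn gave 1404 to 1915 lost regions (1404 without sgArid1a replicate 1, 1661 without sgScramble replicate 2, 1689 without sgArid1a replicate 2, 1915 without sgScramble replicate 1), 104 to 464 gained ones and a missing share of 27.0% to 39.7%, where presence in 1 list stands for a group. The causes of these changes were not tested, beyond the smaller sets that stricter limits leave. Unknown depth limits every absence: no peak in a list is not a measured 0.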
